A study of Mus musculus with 36 samples.

Results

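The genes described here are 8 transcription factors of the hepatocyte, namely Hnf4a, Foxa1, Foxa2, Foxa3, Nr1h4, Nr5a2, Onecut1 and Prox1. They were chosen by name and found in the deposited table through their Ensembl IDs. No measured value entered this rule, but the choice was made with earlier results of these data known. All 8 were present among the 54347 genes of the table, and all 8 were among the 15340 genes tested. RNA had been sequenced from primary cells of male C57Bl/6 mice, with 36 libraries in 12 groups of 3. Hepatocytes came from collagenase-perfused livers of the C57BL/6NHsd substrain and rested overnight without dexamethasone, after attachment in its presence. Inguinal fat pooled from several animals gave the stromal vascular cells that were turned into adipocytes, bone marrow gave macrophages, and hindlimb myoblasts gave myotubes. Each cell type received PBS (control), 5 mM bOHB as the sodium salt of (R)-3-hydroxybutyric acid, or 5 mM butyrate as its sodium salt, for 6 h. A label field of the butyrate samples also carries the name bOHB in brackets, and these samples were taken as butyrate from their titles and treatment fields. No genetic change was made in any group, and no age is given in the sources used here. Adipocytes and macrophages were treated in the same kind of medium and hepatocytes and myotubes each in another, so hepatocytes and their medium cannot be told apart. Nothing in the labels says that the 3 libraries of a group came from separate animals or cultures. The p-values therefore measure a spread between libraries that may be technical, and that spread was estimated for each gene over all 12 groups.

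Hepatocyte identity rests on a small network of transcription factors that bind the regulatory regions of liver genes together and also regulate each other. HNF4A, encoded by Hnf4a, is a nuclear receptor that maintains much of the adult liver programme, and the FOXA proteins are pioneer factors that bind closed chromatin and make enhancers accessible to other factors. FXR (Nr1h4) senses bile acids, LRH-1 (Nr5a2) drives genes of bile acid and cholesterol handling, HNF6 (Onecut1) is a cut-homeodomain factor, and PROX1 (Prox1) is a homeodomain protein of hepatoblasts and hepatocytes that acts largely as a corepressor. Butyrate, a short-chain fatty acid of bacterial fermentation, is known as an inhibitor of histone deacetylases, whereas bOHB is the main circulating ketone body, which hepatocytes release in the fasted state. bOHB carries a hydroxyl group on the beta carbon of the butyrate chain, and both compounds were given at the same concentration and for the same time.

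To show the regulatory sequence of members that moved in opposite directions under butyrate, promoter windows of 300 bases, from 250 before to 50 after a transcription start, were taken from RefSeq on GRCm38.p6. All 8 members had at least 1 window, and 13 windows were found in all. The FOXA core TGTTTNC, the HNF4 core CAAAGTCC, the HNF6 core ATTGAT and the TATA box TATAAA were searched on both strands. Capitals in the sequences mark CpG dinucleotides, in which the windows differ. The windows of Hnf4a (its downstream start, chr2:163546905-163547204, plus strand) and Foxa1 (chr12:57546062-57546361, minus strand) belong to genes that fell, and those of Nr1h4 (chr10:89506609-89506908, minus strand) and Onecut1 (chr9:74861671-74861970, plus strand) to genes that rose.
Hnf4a: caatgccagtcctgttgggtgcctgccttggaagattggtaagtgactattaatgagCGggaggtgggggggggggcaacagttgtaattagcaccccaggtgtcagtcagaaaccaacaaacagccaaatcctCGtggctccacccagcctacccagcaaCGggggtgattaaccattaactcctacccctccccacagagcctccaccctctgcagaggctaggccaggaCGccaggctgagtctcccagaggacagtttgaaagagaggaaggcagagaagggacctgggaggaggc
Foxa1: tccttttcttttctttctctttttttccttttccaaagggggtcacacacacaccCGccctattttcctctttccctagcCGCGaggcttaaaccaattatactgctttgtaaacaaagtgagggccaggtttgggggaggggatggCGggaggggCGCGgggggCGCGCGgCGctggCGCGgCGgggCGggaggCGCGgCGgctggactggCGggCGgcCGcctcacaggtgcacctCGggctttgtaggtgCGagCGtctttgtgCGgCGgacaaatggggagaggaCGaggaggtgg
Nr1h4: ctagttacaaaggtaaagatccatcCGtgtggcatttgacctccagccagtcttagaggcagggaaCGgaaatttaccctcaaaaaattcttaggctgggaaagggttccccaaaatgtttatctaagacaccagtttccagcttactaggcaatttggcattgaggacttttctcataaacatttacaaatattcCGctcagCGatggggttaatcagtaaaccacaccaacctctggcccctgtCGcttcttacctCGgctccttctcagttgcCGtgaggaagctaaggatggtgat
Onecut1: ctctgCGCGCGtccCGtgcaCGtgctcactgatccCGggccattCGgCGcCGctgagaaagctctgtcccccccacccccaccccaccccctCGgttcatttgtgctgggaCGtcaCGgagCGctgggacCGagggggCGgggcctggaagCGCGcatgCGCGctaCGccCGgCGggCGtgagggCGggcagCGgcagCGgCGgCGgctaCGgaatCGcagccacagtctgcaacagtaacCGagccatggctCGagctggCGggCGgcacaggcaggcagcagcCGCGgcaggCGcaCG
The Foxa1 window held 1 FOXA core, starting 141 bases before the start, and the other 3 windows printed held no match. The upstream start of Hnf4a, not printed, had a FOXA core starting 238 bases and an HNF6 core starting 59 bases before it. A FOXA core was found in 3 of the 13 windows of the members and in 20.5% of 32851 mouse windows, an HNF6 core in 2 of 13 and 7.54%, a TATA box in 4 of 13 and 13.6%, and the HNF4 core in 0 of 13 and 1.42%. CpG dinucleotides numbered 38 in the Onecut1 window and 26 in the Foxa1 window, but 7 in the Nr1h4 window and 4 in the Hnf4a window, beside a median of 7 over all windows. Each direction of change thus held a window rich in CpG and one at or below the median. These matches describe letters and were not tested for binding.

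Libraries held 18366289 to 23221473 estimated counts. CPM means the count for every 1000000 counts of a library after TMM scaling of library sizes, and a log2 fold change is called at a Benjamini-Hochberg adjusted p under 0.05 in edgeR's quasi-likelihood test over all 15340 genes. The label of the hepatocytes was checked against 6 markers (Alb, Apoa1, Cps1, Fgb, Serpinc1 and Tdo2), whose summed level was 36240 to 47710 CPM in the 9 hepatocyte libraries with the group mean of every marker above 1 CPM. Their sum was at most 1.56 CPM in adipocyte and macrophage libraries and 0.22 to 0.321 CPM in myotube controls, whereas 1 of 3 bOHB and all 3 butyrate libraries of myotubes stood apart with 25.3 CPM and 33.7 to 615.8 CPM. Results in treated myotubes are given with these values. Adipocyte and myotube markers were high in their own libraries, with sums of 1037 to 2307 CPM for 4 adipocyte markers and 9741 to 19410 CPM for 5 myotube markers. Macrophage-lineage markers summed to 1968 to 3540 CPM in macrophage libraries. Hepatocyte libraries also held RNA of markers of other liver cells, with control sums of 87.8 to 110.6 CPM for Kupffer cell and macrophage, 80.3 to 85.6 CPM for cholangiocyte and 32.6 to 39.8 CPM for stellate cell and fibroblast markers, and butyrate sums of 97.8 to 117.9, 75.9 to 80.3 and 30.5 to 34.9 CPM. Liver endothelial markers summed to 87.5 to 101.5 CPM in control and 30.9 to 37.3 CPM in butyrate libraries. The cholangiocyte sum was mostly Sox9 (66.0 CPM in control and 58.3 CPM under butyrate) and Krt19 (16.2 and 15.7 CPM). Krt7 was at 1.08 and 0.760 CPM, Epcam at 0.263 and 2.63 CPM and Cftr at 0.0627 and 0.0177 CPM. In hepatocytes, adipocyte marker sums were 2.88 to 3.93 CPM in control and 11.1 to 12.1 CPM in butyrate libraries, and myotube marker sums were 22.5 to 23.7 CPM and 41.9 to 46.9 CPM. Each of these differences was that of a single gene, Cidec (3.19 to 11.6 CPM) and Acta1 (18.1 to 41.7 CPM), while Lep was at 0 and Adipoq, Plin1, Ckm, Myog, Ttn and Mylpf had lower means under butyrate and did not pass the test. The Kupffer sum was mostly Cd68 (94.1 and 102.2 CPM), with lower means under butyrate for the other 5 markers (4 markers above 1 CPM in control and 1 under butyrate). Of the stellate markers, Pdgfrb, Col1a1 and Col3a1 fell and Reln rose. The part of these cells in the results was not tested.

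Butyrate changed 6 of the 8 members in hepatocytes. Hnf4a, Foxa1, Foxa2 and Nr5a2 fell, Nr1h4 and Onecut1 rose, and Foxa3 and Prox1 did not pass the test. The background was high, with 63.5% of all tested genes called in this comparison, 32.4% lower and 31% higher. A share of 6 in 8 is therefore near the background. The median log2 fold change of the members was -0.38, beside -0.01 for all tested genes.

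**Figure D1:**
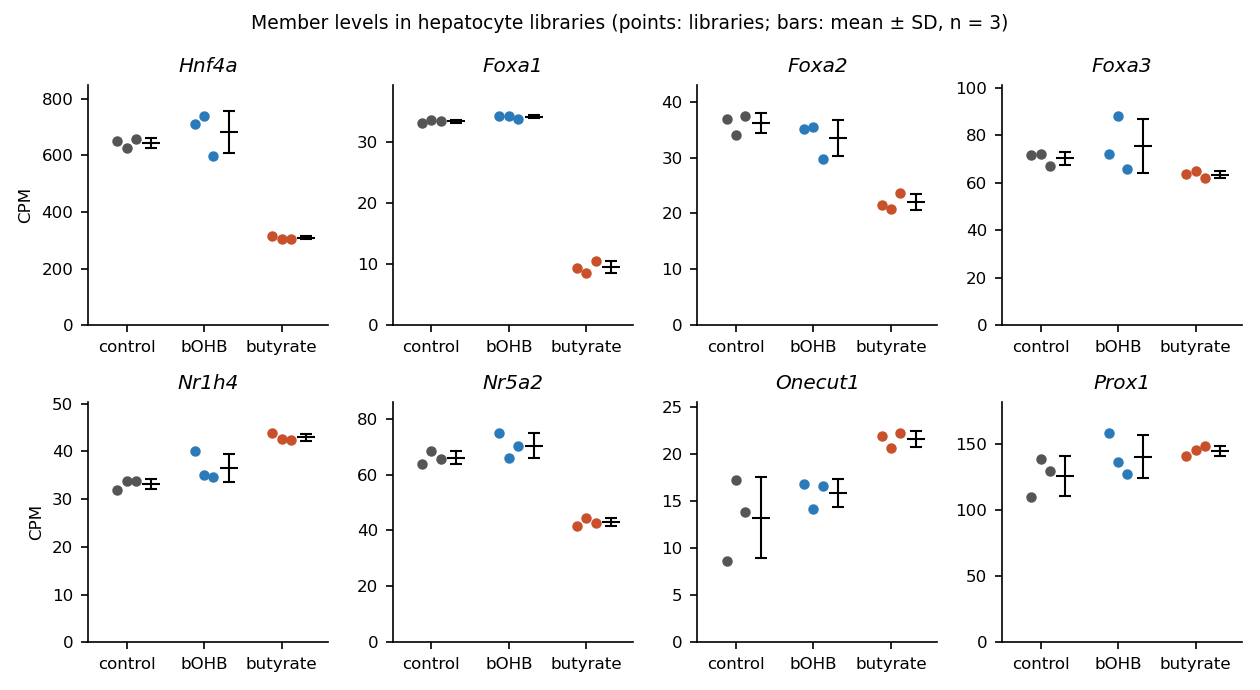
CPM of each member (y axis, linear from 0) in the 9 hepatocyte libraries by treatment (x axis), with points for libraries and bars for the mean ± SD of 3 libraries. The butyrate libraries lie below all control libraries for Hnf4a (304.2 to 314.4 against 625 to 658.3 CPM), Foxa1, Foxa2, Foxa3 and Nr5a2 and above them for Nr1h4, Onecut1 and Prox1.

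Among the nuclear receptors, Hnf4a (ENSMUSG00000017950, chromosome 2 from 163506808 to 163572910 on GRCm38) was the most abundant. Hnf4a was at 650.2, 625 and 658.3 CPM in the control, 709.6, 739.8 and 599.1 CPM in the bOHB and 314.4, 306.3 and 304.2 CPM in the butyrate libraries. The butyrate libraries were closely grouped and below the other 6, whereas bOHB and control libraries overlapped. The log2 fold change under butyrate was -1.06 (SE 0.23, adjusted p = 0.000588 by edgeR), a 2.09-fold decrease. DESeq2 over all 36 libraries gave a like size of -1.05 but an adjusted p of 0.574, against 1.24e-42 when it was fitted to hepatocyte libraries alone, a setting chosen after seeing the data. Fits over all libraries estimate the spread of a gene from every group, and Hnf4a was at 0.69, 6.02 and 2.54 CPM in myotube butyrate libraries. The part of that spread in these values was not tested. Nr5a2 (ENSMUSG00000026398, chromosome 1 from 136842571 to 136960448) was at 63.8, 68.4 and 65.7 CPM in control, 74.8, 65.8 and 70.2 CPM in bOHB and 41.7, 44.4 and 42.7 CPM in butyrate libraries. Its butyrate libraries did not overlap the others, with a log2 fold change of -0.62 (SE 0.13, edgeR adjusted p = 0.000123). Nr1h4 (ENSMUSG00000047638, chromosome 10 from 89454234 to 89533585), the bile acid receptor, moved the other way. Its levels were 32, 33.8 and 33.8 CPM in control, 39.99, 35.0 and 34.6 CPM in bOHB and 43.8, 42.6 and 42.5 CPM in butyrate libraries. The butyrate libraries were the highest of the 9 and overlapped neither group, and the log2 fold change was 0.37 (SE 0.13, edgeR adjusted p = 0.0112), which is 1.3-fold.

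The 3 forkhead genes were unequal. Foxa1 (ENSMUSG00000035451, chromosome 12 from 57540628 to 57546916) was at 33.2, 33.7 and 33.5 CPM in control, 34.4, 34.4 and 33.9 CPM in bOHB and 9.37, 8.62 and 10.6 CPM in butyrate libraries. It had the largest change of the 8 members, a log2 fold change of -1.82 (SE 0.15, edgeR adjusted p = 1.97e-11), which is a 3.52-fold decrease, and its control and bOHB libraries lay within 33.2 to 34.4 CPM. For Foxa2 (ENSMUSG00000037025, chromosome 2 from 148042877 to 148046969), the control libraries were at 36.9, 34.1 and 37.5 CPM, the bOHB libraries at 35.2, 35.5 and 29.7 CPM and the butyrate libraries at 21.6, 20.8 and 23.7 CPM. All butyrate libraries were below the other 6, with a log2 fold change of -0.72 (SE 0.12, edgeR adjusted p = 3.52e-05). Foxa3 (ENSMUSG00000040891, chromosome 7 from 19013284 to 19023538), the FOXA gene with the highest level per length, was at 71.7, 72.1 and 67.1 CPM in control, 72.2, 88.1 and 66.0 CPM in bOHB and 63.7, 64.9 and 61.8 CPM in butyrate libraries. Its butyrate libraries lay below all controls, but the log2 fold change of -0.15 (95% confidence interval -0.40 to 0.10) did not pass the test (edgeR adjusted p = 0.295). Control and butyrate libraries were without overlap for each of the 8 members, beside 68.5% of all tested genes. Differences between the effects on the 3 Foxa genes were not tested.

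Both homeodomain genes had their lowest mean in the controls. Onecut1 (ENSMUSG00000043013, chromosome 9 from 74861921 to 74891781) was at 8.71, 17.3 and 13.8 CPM in control, 16.8, 14.2 and 16.7 CPM in bOHB and 22.0, 20.7 and 22.3 CPM in butyrate libraries. The controls were widely spread, and all butyrate libraries were above them, with a log2 fold change of 0.70 (SE 0.18, edgeR adjusted p = 0.00139). Leaving out 1 hepatocyte library at a time, this value was 0.48 to 0.94, and the highest adjusted p was 0.0133. Prox1 (ENSMUSG00000010175, chromosome 1 from 190118035 to 190170714) was at 109.5, 138.5 and 129.2 CPM in control, 158.1, 136 and 127 CPM in bOHB and 140.9, 145 and 148.2 CPM in butyrate libraries. The butyrate libraries lay above the controls by little, and the log2 fold change of 0.20 (95% confidence interval -0.01 to 0.42) did not pass the test (edgeR adjusted p = 0.0961). The call depended on the fit, with an adjusted p of 0.0362 by limma-voom, 0.0295 by edgeR on hepatocyte libraries alone and 0.0427 by edgeR without control replicate 2. Reads of Prox1 and of its antisense gene Prox1os, whose exons overlap, cannot be told apart where strand was not used. Prox1os was assigned 1.24 CPM in hepatocyte controls and 0.339 CPM under butyrate. Prox1 is also a gene of lymphatic endothelium. The summed level of 6 liver endothelial markers was 87.5 to 101.5 CPM in control, 88.9 to 103.8 CPM in bOHB and 30.9 to 37.3 CPM in butyrate libraries, with 5 of the 6 above 1 CPM in controls and under butyrate, and their part in the result was not tested. In bulk cultures, fewer cells of a type and less RNA per cell cannot be told apart.

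Over the 3 hepatocyte groups, the means of Hnf4a, Foxa1, Foxa3 and Nr5a2 were in the order of bOHB, control and butyrate from high to low. Foxa2 had its highest mean in control. Control and bOHB libraries of these genes overlapped except for Foxa1. For Nr1h4, Onecut1 and Prox1, the mean was instead highest under butyrate and lowest in control. Butyrate and bOHB libraries of Prox1 overlapped. Per kilobase of exon, control levels were 133.5 ± 3.6 CPM for Hnf4a, 34.5 ± 1.36 for Foxa3, 15.3 ± 0.762 for Foxa2, 15.0 ± 1.77 for Prox1, 14.4 ± 0.455 for Nr1h4, 11.2 ± 0.391 for Nr5a2, 10.1 ± 0.0783 for Foxa1 and 3.23 ± 1.05 for Onecut1 (SD, n = 3). Foxa2, Prox1 and Nr1h4 were within 1 SD of a neighbour in this order. Under butyrate, the same scale gave 63.9 ± 1.12 CPM for Hnf4a, 31.2 ± 0.758 for Foxa3, 18.7 ± 0.321 for Nr1h4, 17.2 ± 0.436 for Prox1, 9.29 ± 0.628 for Foxa2, 7.27 ± 0.236 for Nr5a2, 5.26 ± 0.209 for Onecut1 and 2.87 ± 0.305 for Foxa1. Foxa1 stood last and Onecut1 above it under butyrate, the reverse of the controls.

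No member passed the test under bOHB in hepatocytes. edgeR's quasi-likelihood test gave adjusted p-values of 0.96 to 1, limma-voom and DESeq2 also called 0, and 0 members had an unadjusted p under 0.05. Over all tested genes, 0.00652% were called (1 gene), and 5.51% had an unadjusted p under 0.05. The log2 fold changes ranged from -0.11 for Foxa2 to 0.26 for Onecut1. Intervals of 95% show what sizes the fit allows, with the spread of each gene estimated over all cell types. They ran from -0.39 to 0.56 for Hnf4a, from -0.24 to 0.31 for Foxa1, from -0.37 to 0.14 for Foxa2, from -0.14 to 0.35 for Foxa3, from -0.12 to 0.40 for Nr1h4, from -0.17 to 0.35 for Nr5a2, from -0.12 to 0.63 for Onecut1 and from -0.06 to 0.38 for Prox1. The bOHB libraries did not overlap the controls for Foxa1 and Nr1h4, beside 6.71% of all tested genes, but these differences were small and did not pass the test.

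**Figure D2:**
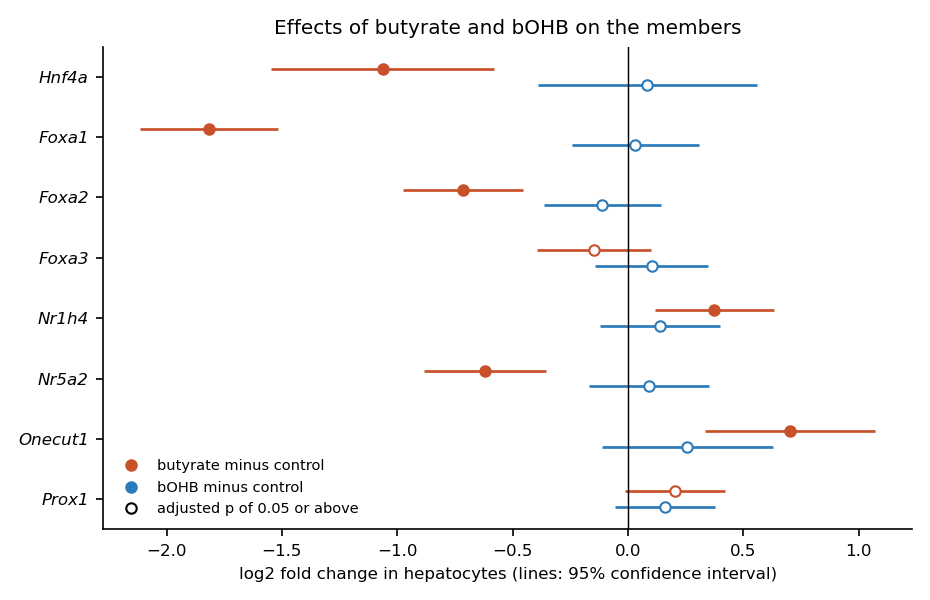
Log2 fold changes (x axis) of the 8 members in hepatocytes under butyrate and bOHB against the same controls, with 95% confidence intervals as lines and open points for values that did not pass the test. The butyrate values run from -1.82 for Foxa1 to 0.70 for Onecut1, while all bOHB intervals include 0.

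Set against bOHB at the same dose and time, butyrate gave different levels of 5 of the 8 members, with 4 lower and 1 higher, beside 63.5% of all tested genes called, 33% lower and 30.5% higher. This comparison shares its butyrate libraries with the one above. Relative to bOHB, the log2 level under butyrate was lower by edgeR for Foxa1 (-1.85, SE 0.15, adjusted p = 1.34e-11), Hnf4a (-1.15, adjusted p = 3e-04, but 0.542 by DESeq2 over all libraries), Nr5a2 (-0.71) and Foxa2 (-0.60). It was higher for Onecut1 (0.45, SE 0.17, edgeR adjusted p = 0.0295), and this call was lost when 1 of 3 libraries was left out (bOHB replicate 2, adjusted p = 0.119, or butyrate replicate 1 or 3, adjusted p = 0.0707 and 0.0746) and with the replicate block (0.0742). For the other 3 members, the compounds did not differ past the threshold. The intervals of the difference were -0.495 to -0.004 for Foxa3 (adjusted p = 0.071 by edgeR, but 0.0096 by limma-voom, 0.0355 with the replicate block and 0.0263 without bOHB replicate 3), -0.02 to 0.49 for Nr1h4 (0.106, but 0.0105 by limma-voom and 0.0189 by DESeq2) and -0.17 to 0.26 for Prox1, so differences up to those bounds are allowed.

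Other genes of the liver network were read from a list of 17 further transcription factors, all tested. Under butyrate, 11 fell, 3 rose and 3 did not pass the test, and the median log2 fold change was -0.83, beside -0.01 over all tested genes, of which 32.4% were called lower and 31% higher. The fallen genes of smallest p were Nr2f6, an orphan nuclear receptor (91.3 to 25.3 CPM, log2 fold change -1.85), Nr1h3, the oxysterol receptor LXR alpha (47.7 to 11.4 CPM, -2.06), and Hhex, a homeobox gene of early liver development (153.3 to 52.8 CPM, -1.54). The 3 genes that rose were Tbx3 (6.94 to 13.0 CPM, 0.91), Gata4 (17.9 to 28.9 CPM, 0.69) and Cebpa (95.3 to 120.3 CPM, 0.34), which encode a T-box factor, a zinc-finger partner of FOXA proteins and a leucine-zipper factor of hepatocytes. Endothelial marker sums were lower in the same libraries, as given above, and Gata4 is also a gene of liver endothelium. Under bOHB, 0 of the 17 were called by edgeR, limma-voom or DESeq2.

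Of 10 listed genes that HNF4A is known to activate, 5 fell, 0 rose and 5 did not pass the test (median log2 fold change -0.36), beside 63.5% of all tested genes called, 32.4% lower and 31% higher, with a median of -0.01. For so short a list, 5 of 10 called is near the background, and all 5 calls were lower. The fallen genes included Pck1 (84.4 to 33.0 CPM, -1.35) and G6pc (13.8 to 6.80 CPM, -1.02), enzymes of gluconeogenesis. The apolipoprotein genes did not pass, with Apoa1 at 5578 CPM in controls and 4684 CPM under butyrate and Apob at 3270 and 4412 CPM. Among 6 listed FOXA targets, Tat, a tyrosine-degrading enzyme gene, rose from 125.5 to 387.8 CPM (log2 fold change 1.63, SE 0.26, edgeR adjusted p = 3.56e-05), Pck1 and G6pc of the former list fell, and Alb, Afp and Igfbp1 did not pass (median 0.15), so that 3 of 6 were called, beside 63.5% of all tested genes.

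Of 13 listed targets of FXR and LRH-1, 10 were tested, and 7 fell, 1 rose and 2 did not pass the test (median log2 fold change -0.53), beside the same 32.4% lower, 31% higher and median of -0.01 over all tested genes. The list joins both factors since many of its genes answer to both, and Nr1h4 rose while Nr5a2 fell. Its count and median are therefore no measure of the activity of either factor. The fallen genes of smallest p were Baat, which conjugates bile acids (49.7 to 11.5 CPM, -2.11), Abcb4, the canalicular phospholipid transporter (242.4 to 173.1 CPM, -0.49), and Abcg8, a subunit of the sterol exporter (14.7 to 6.46 CPM, -1.18). Nr0b2, encoding the repressor SHP, was low and fell from 3.08 to 0.744 CPM (-2.08). Scarb1, the HDL receptor gene, rose from 111.3 to 163.5 CPM (0.56). Slc51a, Slc51b and Cyp7a1, the rate-limiting enzyme gene of bile acid synthesis, were below the filter, with Cyp7a1 at 0.0197 CPM in controls. No gene of these target lists was called under bOHB by edgeR, limma-voom or DESeq2. The lists share genes with each other and were not chosen independently of earlier results.

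**Figure D3:**
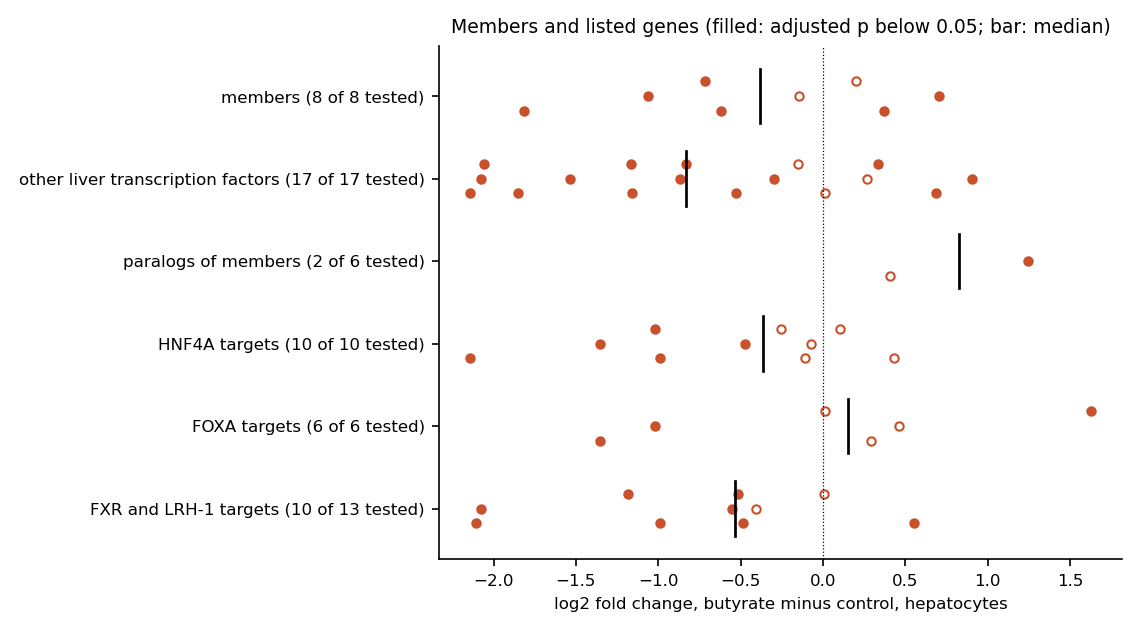
Log2 fold changes under butyrate in hepatocytes (x axis) for the members and the genes of 5 lists (rows), each point a tested gene, filled where the adjusted p was under 0.05, with a bar at the median. Most filled points of the other liver transcription factors lie below 0 (11 of 14), and Tat is the highest point among the FOXA targets.

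Close relatives of the members were read from a list of 6 paralogs, of which 2 passed the filter. Onecut2, which encodes the second ONECUT protein, was at 56.7, 90.2 and 69.4 CPM in hepatocyte controls, 81.0, 65.5 and 78.1 CPM under bOHB and 169.3, 177.6 and 166.7 CPM under butyrate. All butyrate libraries of Onecut2 were above the other 6, and its log2 fold change was 1.25 (SE 0.12, edgeR adjusted p = 9.8e-11). Prox2 was at 1.66 CPM in control and 2.20 CPM in butyrate libraries and did not pass the test (adjusted p = 0.112 by edgeR). Hnf4g was at most 0.66 CPM and Onecut3 at most 0.18 CPM in any hepatocyte library, both with their higher levels under butyrate, and Nr1h5 was at 0 counts in hepatocyte control and butyrate libraries.

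The levels of the members in the other cell types were low except for Prox1. Because 7 of the 8 members passed the filter only through hepatocyte libraries, their higher level there follows from the choice of genes and is given as a description. Hnf4a had 0 counts in all 18 libraries of adipocytes and macrophages and in all 3 myotube controls, which puts hepatocyte controls at least 14300-fold higher than each, taking 3 counts over a group as the floor. Foxa1, Foxa2, Foxa3, Nr1h4, Nr5a2 and Onecut1 had means between 0 and 0.341 CPM in the controls of the other cell types, the highest being Nr5a2 in adipocytes. Prox1 was at 42.9, 45.4 and 49.7 CPM in myotube controls, 5.37, 5.47 and 4.43 CPM in adipocyte controls and 0.297, 0.353 and 0.432 CPM in macrophage controls. These groups did not overlap with each other or with hepatocytes. Prox1, the only member over the filter without hepatocytes, was 2.73-fold higher in hepatocyte than in myotube controls (log2 difference 1.45, SE 0.11, edgeR adjusted p = 2.01e-13), beside 86.6% of tested genes that differed between these controls.

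**Figure D4:**
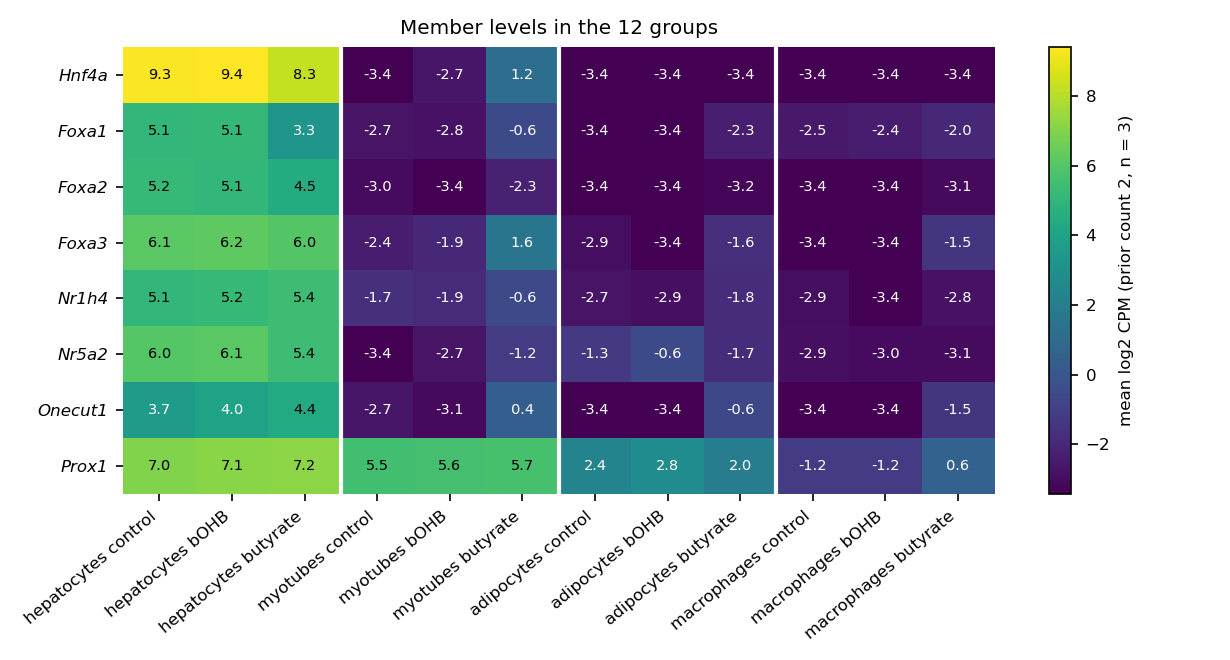
Mean log2 CPM with a prior count of 2 (colour and printed value, n = 3) of each member (rows) in the 12 groups (columns, by cell type and treatment). Values of -3.4 stand for 0 counts, and Prox1 is the only member above 2 on this scale in the controls of another cell type.

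Under butyrate, members were called higher in every other cell type, and none was called lower. Members other than Prox1 had control means of at most 0.341 CPM there, which left little room for a fall to be called. In adipocytes, 3 of 8 were called higher, beside 61% of all tested genes called and 30.7% called higher. In macrophages it was 3 of 8 beside 65% and 31.9%, and in myotubes 6 of 8 beside 66.5% and 33.1%. The shares in adipocytes and macrophages are near the background, and the myotube butyrate libraries held 33.7, 615.8 and 141.5 CPM of hepatocyte marker RNA, against at most 0.321 CPM in their controls. Leaving out 1 library at a time gave 2 to 5 calls in adipocytes, with 4 higher and 1 lower without butyrate replicate 2. All of the calls started from control means of at most 0.36 CPM. Onecut1 was raised in all 3. In adipocytes it went from 0 counts in every control library to 0.64, 0.535 and 0.493 CPM, at least 13-fold, in macrophages from 0 to 0.217, 0.273 and 0.296 CPM, at least 5.82-fold, and in myotubes from 0.0916, 0 and 0.132 CPM to between 1.10 and 1.41 CPM. The groups did not overlap in any of the 3 cell types, and the log2 fold change in myotubes was 3.94 (SE 0.53, edgeR adjusted p = 8.76e-07). Its paralog Onecut2 was raised alongside, from means of 0.4 to 8.00 CPM in adipocytes, 0.295 to 3.33 CPM in macrophages and 1.59 to 20.1 CPM in myotubes (edgeR adjusted p = 2.03e-14, 2.81e-10 and 2.03e-16). Onecut3 rested on 1 count per control group and 9 to 43 counts per butyrate group in these cell types and was below the filter.

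Foxa3 was also called in all 3 other cell types. It was at 0, 0 and 0.169 CPM in adipocyte controls and 0.345, 0.124 and 0.269 CPM in their butyrate libraries, which overlapped (edgeR adjusted p = 0.0466). In macrophages it went from 0 counts to 0.261, 0.156 and 0.422 CPM, at least 6.21-fold. Myotubes held 0.183, 0.044 and 0.0879 CPM in controls and 2.72, 3.76 and 2.32 CPM under butyrate, with no overlap and a log2 fold change of 4.75 (SE 0.41, edgeR adjusted p = 3.57e-10), in the libraries with hepatocyte marker RNA given above. Foxa1 had 0 counts in adipocyte controls and 7 counts over the 3 butyrate libraries, which was called at a level of 0.105 CPM. Prox1 rose in macrophages from a mean of 0.36 CPM to 0.999, 1.95 and 1.44 CPM (log2 fold change 2.02, SE 0.38, edgeR adjusted p = 2.74e-05), with no overlap. Prox1 did not pass the test in adipocytes (5.09 to 3.99 CPM, adjusted p = 0.0972 by edgeR) or in myotubes (46.0 to 51.4 CPM, adjusted p = 0.197).

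Foxa1 and Nr1h4 were called at low levels in myotubes, Foxa1 at 0, 0.176 and 0.0439 CPM in control and 0.406, 0.969 and 0.491 CPM in butyrate libraries, and Nr1h4 at 0.412, 0.132 and 0.176 CPM in control and 0.365, 1.09 and 0.446 CPM in butyrate libraries. The groups overlapped for Nr1h4 and not for Foxa1. Both were highest in butyrate replicate 2, which also held the most hepatocyte marker RNA (615.8 CPM, against 33.7 and 141.5 CPM in replicates 1 and 3). Foxa2 was at 0, 0.044 and 0.0439 CPM in control and 0.0406, 0.202 and 0.134 CPM in butyrate libraries of myotubes, which overlapped, and did not pass the test (adjusted p = 0.0657 by edgeR).

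The remaining values under butyrate in adipocytes and macrophages rested on few counts and did not pass the test. In adipocytes, Nr1h4 had 4 counts over the control and 13 over the butyrate libraries (adjusted p = 0.0654 by edgeR), and these did not overlap in CPM. Nr5a2 had 24 and 14 counts, Foxa2 had 0 and 1, and Hnf4a had none. In macrophages, Foxa1 had 6 and 12 counts, Nr1h4 3 and 4, Nr5a2 3 and 2 and Foxa2 0 and 2, again with none for Hnf4a.

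Hnf4a and Nr5a2 were detected in myotubes under butyrate, together with hepatocyte marker RNA. Hnf4a was at 0.69, 6.02 and 2.54 CPM in butyrate replicates 1, 2 and 3, and Nr5a2 at 0.0406, 1.01 and 0.446 CPM, after 0 counts of both in the controls. In the same libraries the 6 hepatocyte markers summed to 33.7, 615.8 and 141.5 CPM, all 6 with a mean above 1 CPM, which is 0.0716%, 1.31% and 0.301% of the median sum in hepatocyte butyrate libraries. The library with the most marker RNA thus had the most Hnf4a and Nr5a2, and the one with the least had the least. For each 1000 CPM of marker sum, Hnf4a was at 9.77 to 20.5 CPM in these myotube libraries and 6.51 to 6.77 CPM in hepatocyte butyrate libraries. Nr5a2 was at 1.2 to 3.15 CPM on this scale against 0.873 to 0.949 CPM. Foxa2 was at 0.328 to 1.2 against 0.443 to 0.527 CPM, with overlap. Foxa3 was at 6.1 to 80.7 against 1.33 to 1.38 CPM, Onecut1 at 2.29 to 32.5 against 0.439 to 0.495 CPM, Foxa1 at 1.57 to 12 against 0.183 to 0.236 CPM and Nr1h4 at 1.77 to 10.8 against 0.906 to 0.945 CPM. Hnf4a, Nr5a2 and Foxa2 fell under butyrate in hepatocytes, so for them hepatocyte controls would give higher reference values. Hepatocyte control means were 644.5, 65.95 and 36.16 CPM, beside marker sums of 39850 to 41730 CPM. Hepatocyte butyrate means were 308.3, 42.91 and 22.03 CPM, beside 44960 to 47710 CPM. Without myotube butyrate replicate 2, the fit had adjusted p-values by edgeR of 4.91e-05 for Hnf4a, 0.000425 for Nr5a2, 1.92e-09 for Foxa3, 6.23e-06 for Onecut1 and 0.000447 for Foxa1. Nr1h4 was no longer called without it (log2 fold change 0.75, adjusted p = 0.16). Myotube butyrate replicates 1 and 3 still held 33.7 and 141.5 CPM of marker RNA, so this omission does not separate the calls from it. The part of the marker RNA in these results was not tested. In myotube bOHB libraries, Hnf4a was at 0, 0 and 0.354 CPM, and the library with 0.354 CPM was the one with 25.3 CPM of marker sum.

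**Figure D5:**
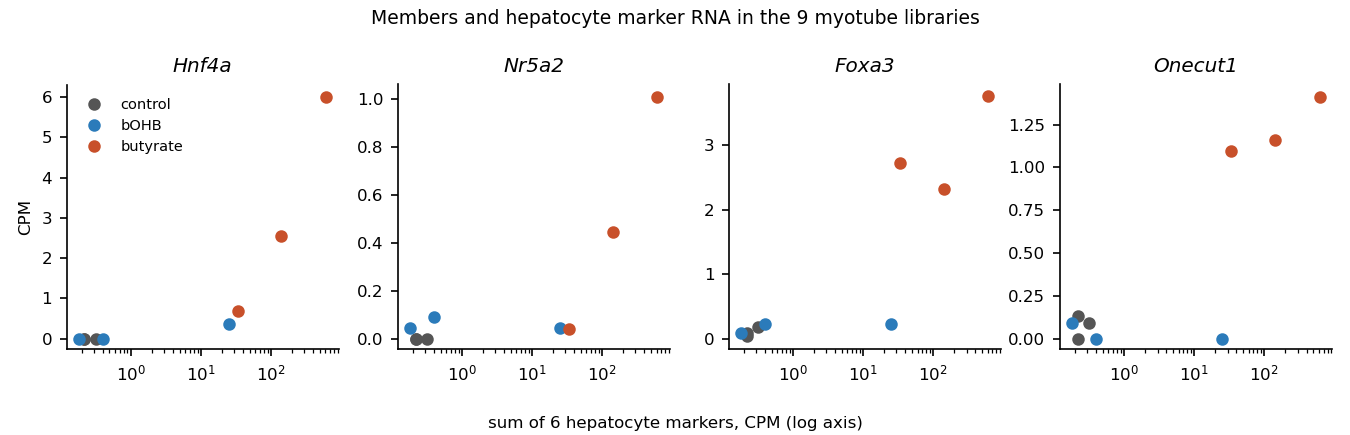
CPM of 4 members (y axis) against the summed CPM of 6 hepatocyte markers (x axis, log scale) in the 9 myotube libraries, with point colours for treatment. All 4 members are highest in the butyrate library with 615.8 CPM of marker sum, and Foxa3 and Onecut1 are above 2.3 and 1 CPM in all 3 butyrate libraries.

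The difference between the effects of butyrate in hepatocytes and another cell type was tested itself, which is read only for members with a mean of at least 1 CPM in the control or butyrate group of both cell types. Outside hepatocytes, Prox1 in macrophages and Foxa3, Onecut1 and Hnf4a in myotubes met this only through the butyrate group, so that the choice favours a difference in effect. Prox1 in adipocytes and myotubes met it in the controls. For Prox1, the effect in hepatocytes minus that in macrophages was -1.81 on the log2 scale (SE 0.40, edgeR adjusted p = 0.00039), beside 44.4% of tested genes called, and minus that in adipocytes it was 0.55 (SE 0.21, adjusted p = 0.0344 by edgeR), beside 41.4%. The adipocyte difference was not called by limma-voom (adjusted p = 0.0741) or without adipocyte control replicate 1 or 2, adipocyte butyrate replicate 3, or hepatocyte control replicate 1 or butyrate replicate 3 (edgeR adjusted p of 0.0539 to 0.151). Against myotubes it was 0.04 (adjusted p = 0.87 by edgeR). Effects on Foxa3 (-4.90) and Onecut1 (-3.24) differed between hepatocytes and myotubes (edgeR adjusted p = 2.08e-09 and 9.74e-05), beside 48.4% of tested genes. That of Hnf4a also differed (edgeR adjusted p = 2.07e-05), but its fitted size has no bound, since myotube controls were at 0. Under bOHB, 0 of the 8 members were called in adipocytes, macrophages and myotubes by edgeR, limma-voom and DESeq2, beside 0.00652%, 0% and 2.91% of tested genes. An unadjusted p under 0.05 was obtained for 1 member in adipocytes, Prox1, at 5.43, 8.56 and 7.25 CPM under bOHB (log2 fold change 0.46, adjusted p = 0.592 by edgeR), and for 0 members in macrophages and myotubes, beside 7.15%, 2.33% and 13.7% of all tested genes in these 3 cell types. Prox1 was at 0.262, 0.375 and 0.435 CPM under bOHB in macrophages and at 47.1, 49.3 and 53.9 CPM in myotubes, overlapping the controls in both. The other 7 members had at most 38 counts over the 3 bOHB libraries of any of these cell types, the highest being Nr5a2 in adipocytes (24 counts in control).

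Across all 36 libraries, the genes most like each member were ranked, and for members other than Prox1 the pattern is dominated by the split of hepatocytes from the rest. By Pearson's r of log2 CPM, these were Serpina1d (0.999) and Ugt2b5 for Hnf4a, Pla2g12b (0.985) for Foxa1, Spp2 (0.998) and Serpina11 for Foxa2 and Slc38a3 (0.989) and Sowahb for Foxa3. For Nr1h4 they were Pipox (0.991) and Cyp3a13, for Nr5a2 Mettl7b (0.994) and Cfi, for Onecut1 Tfcp2l1 (0.988) and Etnk2, and for Prox1 Pcbd1 (0.986) and Fgf1. The libraries fall into separate clusters of cell types, so these values rank genes only.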

How the data were processed

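RNA-seq of 36 libraries was read from the gene-level table that the authors deposited. It holds estimated counts, which the authors made with Salmon 1.2.1 and tximport on GENCODE transcripts of GRCm38.p6. Use of strand is not given in the sources used here. Values were rounded to whole numbers. CPM and log2 CPM (prior count 2) were computed from the deposited counts with TMM scaling. The 15340 genes that exceeded 1 CPM in 6 or more libraries entered the quasi-likelihood test of edgeR 4.0.16 (R 4.3.3) in 1 fit over the 12 groups, whereas the authors used limma, and p-values were adjusted after Benjamini and Hochberg. Per-kilobase levels used the union of exons of GENCODE on GRCm38. Symbols were paired with 54094 of 54347 IDs. In simulated hepatocyte counts of 15340 genes, 200 of them changed, the test recovered 81% of 1.5-fold and 94% of 2-fold changes with 12 false calls. Far more genes were called under butyrate in hepatocytes (63.5%), so these rates need not hold for that comparison. The 8 members were described throughout, by counts or ranges where counts were few. From each gene list, genes called under bOHB and, under butyrate, the 3 raised and 3 lowered genes of smallest p were named. Paralogs were given by level, markers by summed CPM, and for each member the 2 most correlated genes. A gene of these lists that stays in their counts is not reported here. Further genes (Nr0b2, Apoa1, Apob, Alb, Afp, Igfbp1, Cyp7a1) were named after their values were seen. The members and lists were chosen with earlier results of these data known. Alternatives were limma-voom (limma 3.58.1), DESeq2 1.42.0, library totals, other filters, fits to a single cell type, a replicate block and the omission of each library.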

Additional observations from a re-analysis of the deposited data

Results flagged for a closer look

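Effects of butyrate on some members differed between hepatocytes and another cell type in a test of the difference itself (edgeR, an interaction term, 3 libraries per group). Those given are of members with a mean of at least 1 CPM in the control or butyrate group of both cell types. Over all 8 members, 4 were called against adipocytes, 4 against macrophages and 6 against myotubes, beside 41.4%, 44.4% and 48.4% of all tested genes, with most of these members near 0 outside hepatocytes. The shares against adipocytes and macrophages are near the background. Except for Prox1 in adipocytes, the level of 1 CPM was reached there only under butyrate, so that the choice favours members with a difference. For Prox1 the log2 effect in hepatocytes was 0.20, against -0.34 in adipocytes, a difference of 0.55 (SE 0.21, adjusted p = 0.0344). Against macrophages, where the Prox1 effect was 2.02, the difference was -1.81 (SE 0.40, adjusted p = 0.00039). Foxa3 had an effect of -0.15 in hepatocytes and 4.75 in myotubes, a difference of -4.90 (SE 0.44, adjusted p = 2.08e-09). Onecut1 rose in both, by 0.70 and 3.94, and the difference was -3.24 (SE 0.60, adjusted p = 9.74e-05). The fitted difference of Hnf4a against myotubes was -10.12 (SE 1.44, adjusted p = 2.07e-05), which is no bound because myotube controls had 0 counts. Hepatocyte marker RNA was present in the myotube butyrate libraries, at 33.7 to 615.8 CPM, and its part in these differences was not tested.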

How the results depend on the processing

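The number of members called under butyrate in hepatocytes was 6, and it was 5 to 7 over all alternatives. Counts outside 1.5 times the reported one were as follows. Without a filter, 1 member was called under bOHB in adipocytes and 1 in myotubes (0 reported), and 3 paralogs were called under butyrate in hepatocytes (1 reported), against 2 with filterByExpr. The effect on 1 member differed between hepatocytes and adipocytes, but 0 did by limma-voom. FOXA targets called under butyrate numbered 3, but 5 in the fit to hepatocyte libraries alone and 5 by DESeq2 on those libraries, a setting chosen after seeing the data. Leaving out 1 library at a time gave 2 to 5 members called under butyrate in adipocytes, 5 of them without adipocyte butyrate replicate 2, and 0 to 1 members differing between hepatocytes and adipocytes. The latter call on Prox1 was lost without adipocyte control 1 or 2 or butyrate 3, or hepatocyte control 1 or butyrate 3. Hnf4a under butyrate had an adjusted p of 0.574 by DESeq2 over all 36 libraries and 1.24e-42 by DESeq2 on hepatocyte libraries alone. Prox1 under butyrate was called without hepatocyte control replicate 2 (adjusted p = 0.0427 by edgeR). Against bOHB, Nr1h4 was called by limma-voom (0.0105), DESeq2 (0.0189), with library totals (0.0356) and on hepatocyte libraries alone (0.00408, edgeR adjusted p), and Foxa3 by limma-voom (0.0096) and without a filter (0.0321). Causes of these changes were not tested. With the replicate number as a block, 6 members were called under butyrate, 0 under bOHB and 5 between the compounds in hepatocytes, where Foxa3 was gained (adjusted p = 0.0355 by edgeR) and Onecut1 lost (0.0742). Hepatocyte libraries that share a number did not deviate together (r of -0.065 to 0.013), so the numbers do not pair them. Low counts limit the members outside hepatocytes.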
